A study of Homo sapiens with 3 samples.

Results

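Among the cells of the Caco-2 line in a Caco-2 and HT29 co-culture, 675 carried DKK1 and ANKRD1 transcripts well above the rest, and their expression is described here. A cell was kept with at least 1500 unique molecular identifiers (UMIs, each counting 1 captured transcript), at least 700 genes and at most 20% mitochondrial UMIs. It was counted as a Caco-2-line cell when LYZ, KRT20, LCN2, CD24, CD44, CST6, TCN1 and BMP4, genes read mainly from HT29 cells, together held less than 0.1% of its UMIs. The members were chosen by their measured UMIs, those with 3 or more of DKK1 and ANKRD1 together being the DKK1 and ANKRD1 high cells. By this rule 675 of 12734 Caco-2-line cells, and of 15560 kept cells in all, were members, and the other 12059 Caco-2-line cells served as the comparison.

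Caco-2 and HT29 are established lines from human colorectal adenocarcinomas, here seeded together at 9 parts Caco-2 to 1 part HT29 on Transwell membranes and collected on day 23. The 2 control libraries came from cultures without lipopolysaccharide (LPS), and the single LPS library from a culture whose apical side received 1 ng/ml of Escherichia coli O111:B4 LPS on day 22, 24 h before collection. The libraries held 33893707, 27934953 and 24185467 UMIs on 5811, 6495 and 6838 barcodes in control 1, control 2 and LPS, and values below follow that order. A cancer line grown as a monolayer holds no stromal or blood cells and no normal donor epithelium.

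DKK1 encodes a secreted protein that blocks canonical Wnt signalling by binding the co-receptors LRP5 and LRP6, with Kremen proteins as partners, and it is itself transcribed in response to β-catenin. ANKRD1 encodes an ankyrin repeat protein known from stressed muscle and is widely used as a readout of YAP and TAZ, the transcriptional coactivators held back by the Hippo kinases that act through TEAD factors. In the intestine, Wnt signals maintain crypt stem cells and YAP is known for its part in repair of injured epithelium.

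DKK1 (ENSG00000107984) lies on chromosome 10 from 52314281 to 52318042 on the plus strand of GRCh38, and ANKRD1 (ENSG00000148677) on the same chromosome from 90912096 to 90921087 on the minus strand. Of the 5 marker genes, 3 (DKK1, ANKRD1 and UCHL1) matched the RefSeq promoter table, and the 250 bases before the start of each gating gene are shown because their transcripts define the cells. The DKK1 stretch is chr10:52314031-52314280 on the plus strand and the ANKRD1 stretch chr10:90921088-90921337 on the minus strand, both of assembly GRCh38.p14 and written in the direction of the gene. Capitals mark matches on either strand to GGAATG, the core letters of TEAD sites, to CTTTGA, the core of TCF/LEF sites (TCAAAG when read on the opposite strand), and to TATAAA.
DKK1: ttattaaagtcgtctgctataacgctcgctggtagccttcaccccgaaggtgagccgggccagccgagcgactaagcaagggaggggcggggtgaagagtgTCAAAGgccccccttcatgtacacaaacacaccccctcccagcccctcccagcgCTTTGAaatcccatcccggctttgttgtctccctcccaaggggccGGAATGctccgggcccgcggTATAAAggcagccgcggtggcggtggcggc
ANKRD1: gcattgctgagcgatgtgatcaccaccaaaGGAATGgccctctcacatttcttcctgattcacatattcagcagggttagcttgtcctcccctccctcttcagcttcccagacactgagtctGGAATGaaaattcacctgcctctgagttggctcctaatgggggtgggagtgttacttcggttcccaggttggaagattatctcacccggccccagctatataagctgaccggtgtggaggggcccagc
GGAATG occurred 50 bases before the DKK1 start and 220 and 128 bases before the ANKRD1 start. CTTTGA was found in the DKK1 stretch alone, at 95 bases on the strand of the gene and at 149 bases on the opposite one, and TATAAA stood 30 bases before that start. Of 35116 promoters of this length, 11.9% held GGAATG, 11.2% held CTTTGA and 10.7% held TATAAA. In the UCHL1 stretch, TATAAA on the opposite strand was the one match.

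The gating genes chose the cells, so their values describe the rule and carry no test. Summed over the members of each library, DKK1 stood at 817, 533 and 665 CPM (UMIs scaled to a total of 1000000 per sum), against 7.61, 13.2 and 13.5 CPM in the other Caco-2-line cells. ANKRD1 stood at 479, 528 and 440 CPM against 7.45, 16.9 and 18.0 CPM. Neither gene rested on 1 library, and the members' own values differed by less than 2-fold between libraries. Both transcripts were present in 278 members, DKK1 without ANKRD1 in 215 and ANKRD1 without DKK1 in 182. A member held a median of 6, 5 and 5 UMIs of both genes together, and the highest cell of each library held 154, 76 and 76.

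GAL, UCHL1 and TAGLN were named as markers of these cells beforehand and are likewise described without a test. GAL, which encodes the neuropeptide galanin, stood at 124, 141 and 83.8 CPM against 27.0, 40.8 and 31.7 CPM in the other cells, a 3.51-fold ratio of means. UCHL1, a deubiquitinase abundant in neurons, stood at 85.1, 67.0 and 63.1 CPM against 11.8, 12.8 and 11.4 CPM, a 5.99-fold ratio. TAGLN, the actin-binding protein transgelin of smooth muscle, stood at 160, 97.7 and 87.4 CPM against 10.9, 13.2 and 10.0 CPM, a 10.1-fold ratio. All 3 markers were above the comparison in every library with no overlap, which the choice of markers from these same cells had largely set.

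The markers were spread unevenly over the members. GAL was detected in 45.1%, 44.9% and 29.3% of members and UCHL1 in 32.9%, 28.3% and 25.0%, whereas TAGLN was detected in 20.2%, 19.7% and 11.5%. The 3 cells richest in TAGLN held 31.1%, 58.6% and 54.1% of its UMIs in the members of each library, so the TAGLN level rested on few cells, in contrast to GAL, where 3 cells held 13.0%, 13.0% and 15.4%. After each cell had been thinned to 3000 UMIs, GAL was seen in 21.6%, 24.8% and 19.2% of members against 6.05%, 10.2% and 8.51% of the others. HT29-line cells, with at least 0.2% of their UMIs on the 8 HT29 genes, showed a GAL UMI in 0.541%, 0.954% and 1.36% without thinning.

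**Figure D1:**
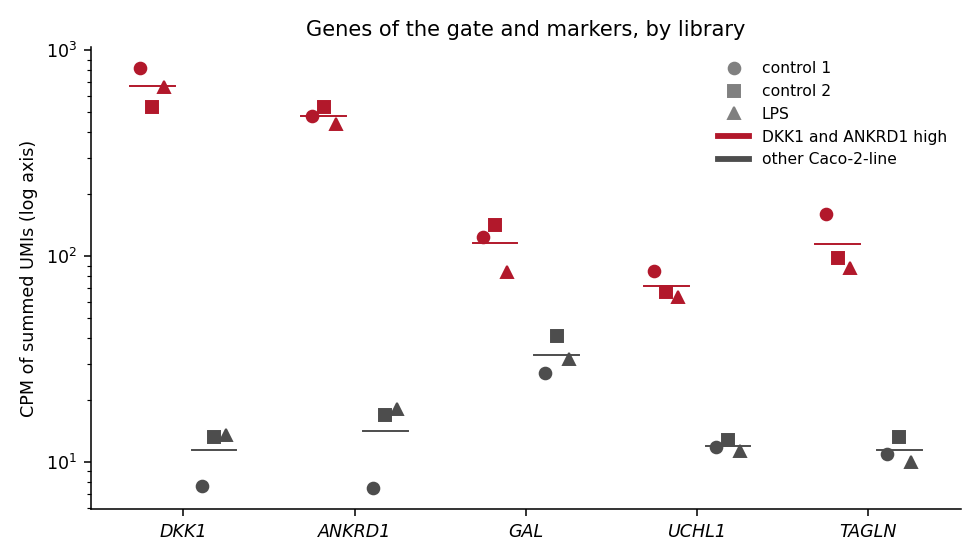
Level in CPM (log axis) of DKK1, ANKRD1, GAL, UCHL1 and TAGLN in each of the 3 libraries, for the summed members (red) and the summed other Caco-2-line cells (grey), with a horizontal line at each mean. For each gene the 3 member sums lie above the 3 comparison sums, from 817, 533 and 665 CPM against 7.61, 13.2 and 13.5 CPM for DKK1 to 124, 141 and 83.8 CPM against 27.0, 40.8 and 31.7 CPM for GAL.

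The members made up 4.97% of the Caco-2-line cells in control 1 (95% exact binomial interval 4.34% to 5.66%), 6.02% in control 2 (5.33% to 6.79%) and 4.92% in the LPS library (4.29% to 5.61%). The LPS share lay within 0.1 percentage points of control 1 and below control 2, and with 1 LPS culture no test of it was made. The same gate took 0.901%, 0.681% and 0.302% of the HT29-line cells, whose median depths were 5445, 3873.5 and 3863 UMIs against 7392, 6762 and 5603.5 UMIs in members. With cells thinned to 3000 UMIs before the gate, the shares were 2.76%, 3.82% and 3.55% of Caco-2-line cells and 0.207%, 0.564% and 0 of 449 of HT29-line cells. The gate thus took a larger share of Caco-2-line than of HT29-line cells in every library at equal depth, and intervals here cover counting error only.

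The rule had set the line of the members and of the comparison cells, so further signature genes are given as a description. Lists of Caco-2 and HT29 signature genes came from the supplementary files of the study. The 764 Caco-2 genes took a median of 39.0%, 40.4% and 40.2% of the UMIs of a member against 39.9%, 40.2% and 40.2% in the other Caco-2-line cells and 27.5%, 27.6% and 28.5% in HT29-line cells. The 399 HT29 genes took a median of 8.89%, 9.41% and 8.90% in members, 9.68%, 10.1% and 9.85% in the other Caco-2-line cells and 16.1%, 16.0% and 15.4% in HT29-line cells. Members were thus below the other Caco-2-line cells in the HT29 list in each library. Of the 8 genes that set the limit, described without a test, KRT20 stood at 5.71, 12.3 and 10.0 CPM in members against 24.6, 15.9 and 15 CPM, and CD24 at 32.2, 40.9 and 61.6 CPM against 21.6, 32.0 and 27.2 CPM. BMP4 stood at 35.8, 42.5 and 45.9 CPM against 15, 21.2 and 18.8 CPM and CD44 at 11.4, 11.8 and 8.60 CPM against 4.07, 6.77 and 5.80 CPM. CD24, BMP4 and CD44 were thus higher in the members of every library without overlap and KRT20 lower, LYZ and LCN2 overlapped, and CST6 and TCN1 had 1 and 2 UMIs in all members.

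The members were larger libraries per cell. They held medians of 2544, 2308.5 and 2070 genes against 1813.5, 1535 and 1392, with median mitochondrial shares of 3.75%, 4.90% and 5.69% against 3.71%, 4.26% and 4.53%. Ribosomal protein genes took a smaller median share of their UMIs, 28.1%, 29.6% and 27.4% against 33.1%, 33.1% and 32.7%. A gate on a number of UMIs favours deep cells, so counts in cells of 5000 to 15000 UMIs are also given below for several lists. Cells in the top 6% of doublet scores were 6.1%, 3.94% and 5.77% of members and 5.25%, 5.58% and 5.60% of the others.

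More members were called in S or G2/M phase. With cells thinned to 1500 UMIs before scoring, 33.3%, 25.2% and 27.9% of members were called G1 against 60.3%, 49.8% and 56.4% of the other cells. S phase calls made up 28.6%, 18.1% and 26.4% of members against 12.3%, 13.9% and 18.9%, and G2/M calls 38.0%, 56.7% and 45.7% against 27.4%, 36.3% and 24.7%. Within 5000 to 15000 UMIs the G1 shares were 30.6%, 15% and 26.4% against 49.9%, 33.0% and 36.3%, so the members had the lower G1 share in each library in both sets of cells. The S shares in that window were 33.3%, 20% and 20.9% against 15.1%, 14.6% and 22.8%, and the G2/M shares 36.1%, 65.0% and 52.7% against 35.1%, 52.4% and 40.9%. In the window the S share of members was thus the lower one in the LPS library, and the G2/M share of control 1 was nearly level. The part of cycling in the differences below was not tested, and counts in cells called G1 stand beside several of them.

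The gating genes also went together when 1 of them alone set the gate. Both belong to the rule and the pair was picked from these cells, so the values are a description without a test. Cells with 3 or more DKK1 UMIs (127, 119 and 114) held ANKRD1 at 419, 366 and 278 CPM, against 17.9, 38.6 and 33.7 CPM in Caco-2-line cells without DKK1, a log2 difference of 3.45. Cells with 3 or more ANKRD1 UMIs (94, 131 and 91) held DKK1 at 367, 225 and 278 CPM against 45.9, 42.2 and 43.5 CPM in cells without ANKRD1, a log2 difference of 2.55. The values of the cell sets did not overlap in either case. Within 5000 to 15000 UMIs the differences were 3.09 and 2.44. Over the 4289, 4216 and 4229 Caco-2-line cells of a library, Pearson's r between the log-normalized values of DKK1 and ANKRD1 was 0.287, 0.25 and 0.212, which describes cells that share a library and its depth.

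Counts were then summed per library over members and over the other Caco-2-line cells, and the quasi-likelihood method of edgeR was applied to 13451 genes, with the library as a block and a Benjamini-Hochberg adjusted p of 0.05 as the limit. Members had 15% of these genes called higher (2021) and 15.2% called lower (2038), 30.2% in all, with a median log2 difference of -0.02 over all of them. All 3 member sums lay above all 3 comparison sums for 28.2% of the genes and below them for 12.7%, which is the background for statements below that groups did not overlap. The 3 sums of a group come from separate libraries, and the labels do not say more about how separate the cultures were. With the library as a block, p-values measure how far the difference between members and others varied between these libraries. Gene lists are described below by their calls and medians against those shares. The settings used below for list counts each made fewer calls over all genes. Their list counts are read against 8.35% higher and 7.71% lower in DESeq2 and 9.7% and 10.7% in cells of 5000 to 15000 UMIs. The shares were 6% and 7.93% in cells called G1, and 8.19% and 7.89% among cells low in enterocyte genes. That last setting, chosen after the data were seen, kept in both groups the cells whose share of UMIs on enterocyte genes was at or under the member median of their library, which left 107, 127 and 104 members and 843, 880 and 1207 other cells.

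**Figure D2:**
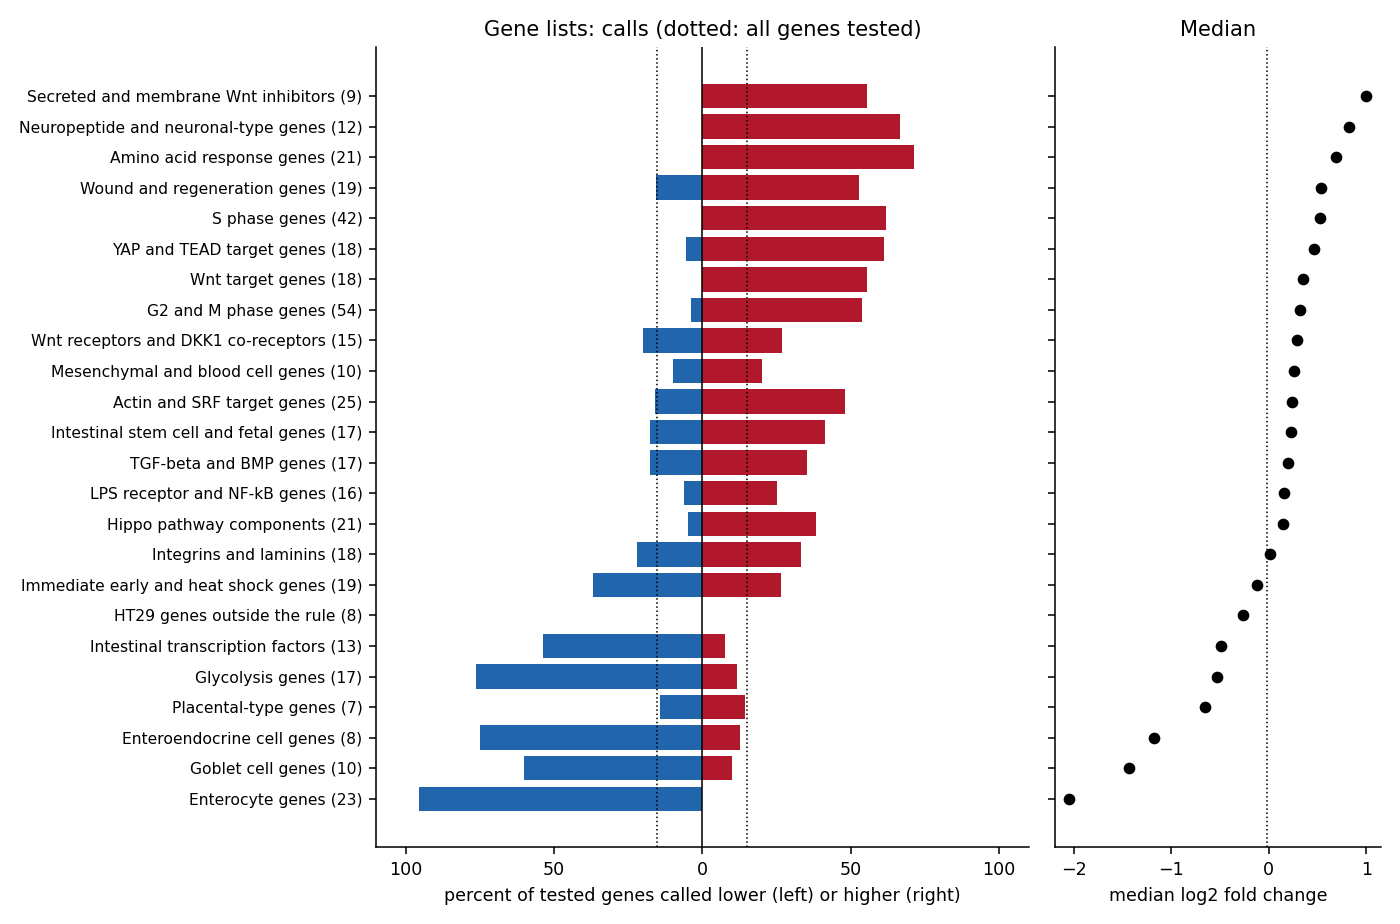
For each gene list, the left panel gives the percent of its tested genes called higher or lower in members than in the other Caco-2-line cells, with dotted lines at 15% and 15.2%, the shares over all genes tested, and the right panel gives the median log2 difference. Enterocyte genes have the lowest median, -2.04, and secreted and membrane Wnt inhibitors the highest, 1.00.

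Of 9 other secreted or membrane Wnt inhibitors tested, 5 were called higher and 0 lower, with a median log2 difference of 1.00. DESeq2 called 2 of the 9 higher, cells called G1 gave 3 of 6 and cells low in enterocyte genes 1 of 7. DKK3, a further member of the DKK family, stood at 37.4, 23.5 and 25.1 CPM against 6.61, 8.54 and 11.2 CPM, a log2 difference of 1.61 (SE 0.20). The highest comparison value lay below the lowest member value. ZNRF3, a ubiquitin ligase that removes Frizzled receptors, stood at 18.7, 13.8 and 20.8 CPM against 6.76, 8.38 and 8.58 CPM, and NOTUM, which strips the lipid from Wnt ligands, at 7.79, 5.63 and 5.02 CPM against 2.15, 2.53 and 2.60 CPM. PLA2G2A, a secreted phospholipase of Paneth cells, stood at 87.7, 70.1 and 260 CPM against 45.9, 59.6 and 44.9 CPM, with the LPS library far above both controls. Its log2 difference of 1.17 was not called by DESeq2 (adjusted p = 0.28).

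Of 15 Wnt receptors and DKK1 co-receptors tested, 4 were called higher and 3 lower, with a median of 0.29, and in cells of 5000 to 15000 UMIs 2 of 13 were higher and 2 lower. LRP5, a co-receptor that DKK1 binds, was lower in members at 50.9, 52.2 and 60.2 CPM against 68.0, 72.8 and 83.6 CPM (log2 difference -0.62, SE 0.09). LRP6, the other co-receptor, stood at 41.0, 45.5 and 73.8 CPM against 58.3, 56.2 and 65.3 CPM. LRP6 was called lower at an edgeR adjusted p of 0.016, but its groups overlapped, since it was lower in the 2 controls and higher in the LPS library, and neither DESeq2 (adjusted p = 0.13) nor the cells of 5000 to 15000 UMIs (edgeR adjusted p = 0.27) called it, whereas it was called lower in cells called G1 (log2 difference -0.56) and among cells low in enterocyte genes (-0.45). KREMEN1 averaged 10.5 CPM against 6.28 CPM and KREMEN2 5.65 CPM against 3.45 CPM, and neither passed the test. The Frizzled receptor FZD4 was higher at 31.7, 28.7 and 32.3 CPM against 14.3, 18.4 and 22.3 CPM, with a call lost when the gate was set on thinned cells (adjusted p = 0.086 in edgeR) and among cells low in enterocyte genes (adjusted p = 0.071), and so was FZD2 at 15.1, 8.70 and 10.7 CPM against 3.11, 4.49 and 4.79 CPM. LGR5, the R-spondin receptor of crypt stem cells, averaged 8.31 CPM against 4.42 CPM and was called higher. It was not called in DESeq2, in cells called G1 or among cells low in enterocyte genes. Its relative LGR4 was called lower with a log2 difference of -0.58, which was not called in cells called G1 (-0.39, edgeR adjusted p = 0.17).

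Transcripts known to follow β-catenin were called higher for 10 of 18 tested and lower for 0, with a median of 0.35. SP5, a zinc finger repressor induced by Wnt, stood at 45.7, 24.6 and 28.0 CPM against 11.6, 9.24 and 9.29 CPM, a log2 difference of 1.54 (SE 0.15). CCND2, a cyclin of G1, stood at 24.4, 42.0 and 36.5 CPM against 7.49, 9.04 and 10.4 CPM. AXIN2, the negative feedback scaffold of the pathway, stood at 10.4, 9.72 and 7.88 CPM against 4.49, 5.50 and 4.73 CPM (log2 difference 0.78). For these 3 genes all member sums lay above all comparison sums, but AXIN2 was not called among cells low in enterocyte genes. MYC averaged 51.6 CPM against 44.5 CPM and, like ASCL2 and SOX9, did not pass the test. In cells called G1, 6 of 17 tested members of this list were called higher, and DESeq2 called 6 of 18.

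YAP and TEAD target genes other than ANKRD1 were called higher for 11 of 18 tested and lower for 1, with a median of 0.46. CCN1 (CYR61 in the files), a matricellular protein and standard YAP readout, stood at 71.6, 58.3 and 93.9 CPM against 26.3, 38.3 and 33.9 CPM, a log2 difference of 1.01 (SE 0.13). CCN2 (CTGF in the files), its relative, stood at 136, 102 and 112.5 CPM against 77.7, 89.9 and 66.3 CPM, a smaller difference of 0.41 (SE 0.10). AMOTL2, an angiomotin family protein that binds YAP, stood at 64.4, 84.4 and 88.9 CPM against 42.1, 41.1 and 55.9 CPM. None of the 3 genes had overlapping groups. CCDC80 and CRIM1 differed by 1.06 and 1.01, and FJX1 by 1.45, on the log2 scale. NT5E, the ecto-enzyme CD73, was the 1 target called lower (log2 difference -0.83). No target was called lower in DESeq2, in cells called G1 or among cells low in enterocyte genes. In cells of 5000 to 15000 UMIs, 10 of 18 targets were called higher and 1 was still called lower.

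Among 21 Hippo pathway components, 8 were called higher and 1 lower, with a median of 0.15. TEAD1, the DNA-binding partner of YAP, stood at 55.5, 58.3 and 66.6 CPM against 24.0, 28.8 and 30.9 CPM, a log2 difference of 0.95 (SE 0.10). YAP1 itself averaged 54.2 CPM against 51.4 CPM and did not pass the test (edgeR adjusted p = 0.56). WWTR1, which encodes TAZ, and TEAD4 had differences of 0.44 and 0.49 in edgeR, and DESeq2 called neither (adjusted p = 0.096 and 0.12), nor did the cells of 5000 to 15000 UMIs call TEAD4 (edgeR adjusted p = 0.23). DESeq2 called 4 of the 21 components higher. In cells called G1, 1 of 20 tested components was called higher, near the 6% of all genes in that setting, and 6 of 18 YAP and TEAD targets were.

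Within a window of 5000 to 15000 UMIs per cell, the level of several genes was compared between cells with few and many gating UMIs. The gating genes set these bins and GAL and UCHL1 were picked from these same cells, so the values are a description without a test. From cells with 0 gating UMIs to cells with 10 or more, GAL went from 28.3 to 127 CPM in control 1, from 46.3 to 182 CPM in control 2 and from 36.4 to 123 CPM in the LPS library. UCHL1 went from 8.28 to 112, from 10.6 to 97.1 and from 9.44 to 74.8 CPM. CYR61 went from 22.7 to 74.2 CPM in control 1 and from 29.1 to 74.8 CPM in the LPS library but stood at 36.3 and 34.9 CPM in control 2. The ends of the range were thus apart in all libraries for GAL and UCHL1 and in 2 of 3 for CYR61. APOA4, an apolipoprotein of enterocytes, went the other way, from 1776 to 38.3, from 1239 to 62.3 and from 1445 to 32.1 CPM. Between the ends the course was uneven. APOA4 in control 2 stood at 285 CPM with 3 gating UMIs and at 773 CPM with 4 to 5. GAL in the LPS library stood at 120 CPM with 4 to 5 and at 66.7 CPM with 6 to 9. At the threshold, the 60, 73 and 55 cells of the window just outside, with 2 gating UMIs, held GAL at 83.2, 48.4 and 41.7 CPM, and the 34, 39 and 26 cells just inside, with 3, at 103, 101 and 87.8 CPM.

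**Figure D3:**
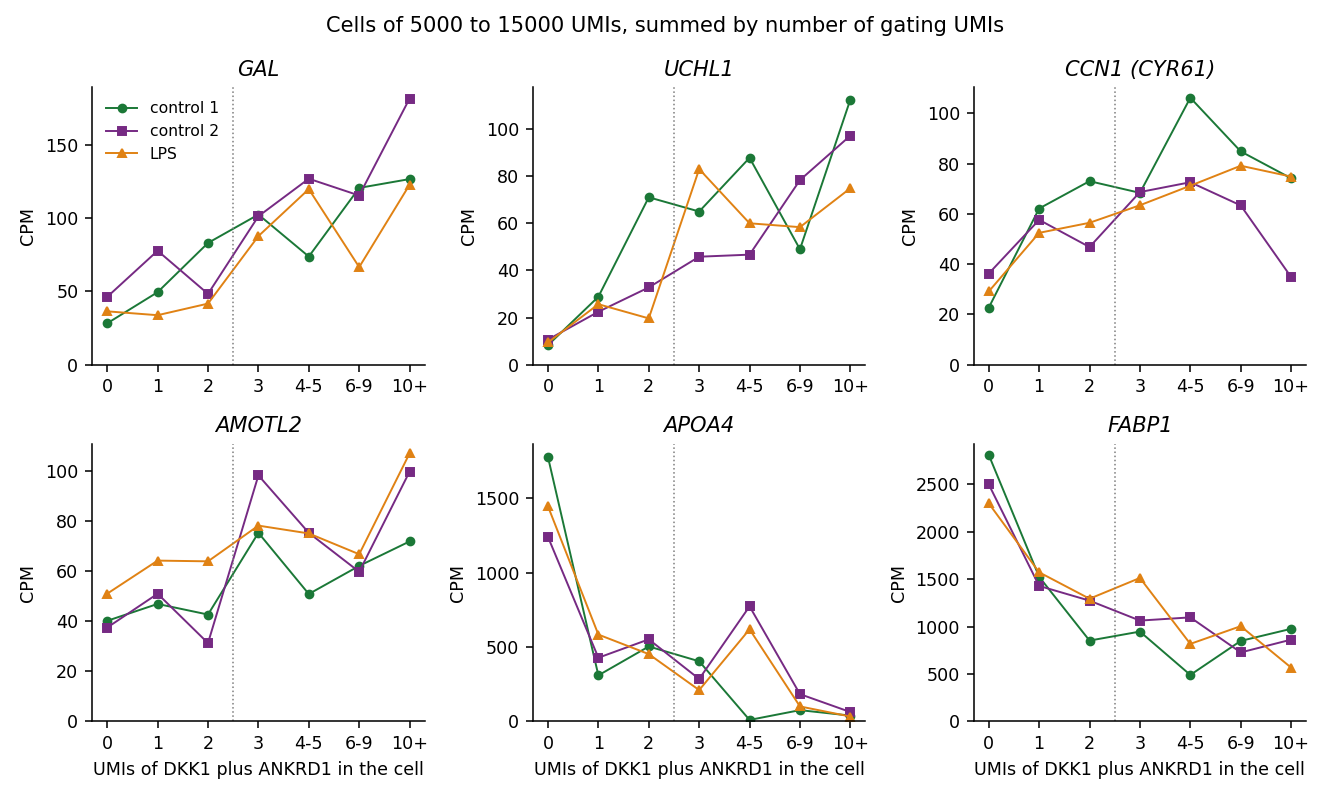
Level in CPM of GAL, UCHL1, CCN1 (CYR61), AMOTL2, APOA4 and FABP1 in Caco-2-line cells of 5000 to 15000 UMIs, by the number of DKK1 and ANKRD1 UMIs in the cell (0, 1, 2, 3, 4 to 5, 6 to 9, 10 or more), with 1 line per library and a dotted line at the threshold between 2 and 3. GAL goes from 28.3, 46.3 and 36.4 CPM at 0 to 127, 182 and 123 CPM at 10 or more, and APOA4 from 1776, 1239 and 1445 CPM to 38.3, 62.3 and 32.1 CPM.

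Over single cells of all depths, the genes whose values followed the gating pair most closely were led by KRT18 and FN1. Over 11503 genes, the mean r with the summed log-normalized gating genes across the 3 libraries was highest for KRT18 and FN1, at 0.255 each, then MDK at 0.253, BCAT1 at 0.246 and LINC02413 and CADM1 at 0.240 each. KRT18, an epithelial keratin, stood at 2271, 1882 and 1503 CPM against 852, 854 and 741 CPM, and its partner KRT8 at 1132, 1079 and 1002 CPM against 523, 531 and 515 CPM. FN1, the matrix protein fibronectin, stood at 455, 370 and 435 CPM against 115, 124 and 167 CPM, a log2 difference of 1.49. CADM1, a cell adhesion molecule, stood at 80.5, 86.0 and 117 CPM against 14.5, 24.5 and 26.7 CPM, a difference of 1.96. These 4 genes were far apart between the groups in every library, which their choice by correlation with the gating pair over these same cells had largely set. The most negative mean r was that of LGALS14, a galectin, at -0.263.

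Neuropeptide and neuronal-type genes other than GAL and UCHL1 were called higher for 8 of 12 tested and lower for 0, with a median of 0.82. SLC1A3, a glutamate transporter of glia, stood at 72.7, 35.8 and 38.7 CPM against 10.6, 9.60 and 11.9 CPM, a log2 difference of 2.05 (SE 0.16). TUBB2B, a neuronal tubulin, stood at 116, 112 and 121 CPM against 44.2, 58.3 and 47.2 CPM. SOX2, a factor of neural and foregut progenitors, stood at 18.7, 18.4 and 15.8 CPM against 4.46, 5.20 and 7.22 CPM. Each was apart between the groups. NPW, which encodes neuropeptide W, and NRCAM, a neural adhesion molecule, differed by 0.97 and 1.78. In cells of 5000 to 15000 UMIs 8 genes of the list were called higher, and in cells called G1 8 of 10 tested.

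Actin and SRF target genes were mixed, with 12 of 25 called higher and 4 lower and a median of 0.24. In cells called G1, 5 of 25 were called higher and 3 lower. VCL, which links actin to adhesion sites, CALD1 and CNN3 differed by 0.75, 0.70 and 0.72, whereas TMSB10 and ACTG1 differed by -0.48 and -0.30. COTL1, an actin-binding protein, stood at 94.5, 88.0 and 86.0 CPM against 18.3, 25.1 and 23.8 CPM. Among integrins and laminins, 6 of 18 were called higher and 4 lower, with a median of 0.01, and in cells called G1 2 of 17 were higher and 2 lower. LAMA1, a laminin chain of early basement membranes, was higher at 24.4, 21.5 and 34.4 CPM against 6.53, 13.3 and 15.4 CPM, and ITGA5, the fibronectin receptor subunit, was lower at 10.4, 9.72 and 7.88 CPM against 25.9, 23.0 and 32.8 CPM. For each of those genes the groups did not overlap. TGF-β and BMP genes had 6 of 17 higher and 3 lower, and in cells of 5000 to 15000 UMIs 5 of 16 were higher and 0 lower. Among those higher were BMP7 (log2 difference 1.43) and the pseudoreceptor BAMBI (1.08). BAMBI was not called in cells called G1 (0.93, edgeR adjusted p = 0.057).

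S phase genes were called higher for 26 of 42 tested and lower for 0, with a median of 0.53, and G2 and M phase genes for 29 of 54, with 2 lower and a median of 0.32. MCM5, of the replication helicase, stood at 31.7, 20.5 and 25.8 CPM against 13.5, 13.2 and 14.4 CPM. KIF23, a kinesin of cytokinesis, stood at 26.0, 31.7 and 43.7 CPM against 16.4, 17.2 and 16.9 CPM. Both had member sums above all comparison sums. With the gate set on thinned cells neither passed (adjusted p = 0.077 and 0.083 in edgeR). MCM5 was not called among cells low in enterocyte genes (log2 difference 0.62, edgeR adjusted p = 0.056). In cells called G1, MCM5 was not called either (0.24, edgeR adjusted p = 0.83), but S phase genes help choose those cells, so this is no check. Among G2 and M phase genes, CDCA2 was lower (log2 difference -1.11), a call that ended among cells low in enterocyte genes (-0.10, edgeR adjusted p = 0.83). In cells called G1 the counts were 6 of 35 and 11 of 45. Phase genes help choose those cells, so these counts are a description and no check. In cells of 5000 to 15000 UMIs, 18 S phase genes were called higher and 0 lower. G2 and M phase genes went both ways there, with 5 higher and 4 lower.

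Amino acid response genes, which are induced when amino acids run short, were called higher for 15 of 21 tested and lower for 0, with a median of 0.69. ASNS, asparagine synthetase, stood at 78.9, 81.9 and 102 CPM against 28.6, 38.0 and 37.7 CPM, a log2 difference of 1.17. PSAT1, of serine synthesis, stood at 36.9, 28.7 and 33.7 CPM against 11.6, 14.6 and 15 CPM, and MTHFD2, of mitochondrial folate metabolism, at 201, 248 and 216 CPM against 81.7, 117 and 115 CPM. No group overlapped for these 3. BCAT1, which starts the breakdown of branched-chain amino acids, differed by 1.70, and GLUD1, glutamate dehydrogenase, which is outside the list, by 1.24. In cells called G1, 10 of the list were called higher and 1 lower.

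Glycolysis genes went the other way, with 13 of 17 called lower and 2 higher and a median of -0.53. LDHA, lactate dehydrogenase A, stood at 620, 615 and 569 CPM against 1242, 1045 and 945 CPM, while LDHB was called higher (log2 difference 0.37). ALDOA, GPI and ENO2 differed by -1.11, -0.83 and -1.07. In cells called G1 the count was again 13 lower and 1 higher.

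Enterocyte genes were called lower for 22 of 23 tested and higher for 0, with a median of -2.04. APOA4 stood at 182, 312 and 198 CPM against 1609, 1215 and 1415 CPM. MTTP, which loads lipid onto apolipoprotein B, stood at 30.6, 18.4 and 20.8 CPM against 171, 134 and 155 CPM. SLC26A3, a chloride and bicarbonate exchanger of the brush border outside this list, stood at 6.75, 5.12 and 4.30 CPM against 54.7, 33.1 and 44.1 CPM. Every member sum of APOA4, MTTP and SLC26A3 lay far below every comparison sum. The SLC26A3 log2 difference of -3.16 fell to -1.49 among cells low in enterocyte genes and was not called there (edgeR adjusted p = 0.10). FABP1, a fatty acid binding protein, differed by -1.60 and APOA1 by -0.43, with APOA1 at 5405, 3820 and 3589 CPM against 6327, 4877 and 4217 CPM and overlapping groups. ALPI, intestinal alkaline phosphatase, did not pass the test.

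Among cells low in enterocyte genes, enterocyte genes themselves are not compared, since they chose the cells. PLA2G2A and LAMA1 had differences of 0.06 and 0.01 in that setting and were not called. The YAP and TEAD targets had 9 of 17 called higher, the neuronal-type genes 6 of 9, S phase genes 11 of 39 and G2 and M phase genes 13 of 54, and the glycolysis genes had 10 of 17 called lower, each above the 8.19% higher or 7.89% lower over all genes. Called higher were also 3 of 18 Wnt targets, 3 of 21 Hippo components, 2 of 15 stem cell and fetal genes, 1 of 7 Wnt inhibitors and 0 of 12 LPS receptor and NF-κB genes. The Wnt receptors had 1 of 13 higher and 4 lower.

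Transcription factors of the intestine were called lower for 7 of 13 tested and higher for 1, with a median of -0.49. CDX2, which sets intestinal identity, stood at 43.1, 48.6 and 53.0 CPM against 98.3, 101 and 101 CPM, and HNF4A, an activator of enterocyte genes, at 73.2, 64.5 and 78.1 CPM against 144, 113 and 147 CPM. GATA6 was the 1 called higher, at 83.6, 82.4 and 81.0 CPM against 49.7, 48.7 and 52.4 CPM. The groups were apart for all 3 factors. GATA6 was not called among cells low in enterocyte genes (log2 difference 0.35, adjusted p = 0.058).

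Intestinal stem cell and fetal genes were called higher for 7 of 17 and lower for 3, with a median of 0.23, while 3 of 17 were called higher in DESeq2 and 3 of 16 in cells called G1. SPINK1, a trypsin inhibitor, stood at 984, 624 and 888 CPM against 495, 419 and 426 CPM, and PROM1, a membrane protein of progenitors, at 39.5, 46.6 and 53.0 CPM against 22.1, 21.4 and 25.6 CPM. AFP, the fetal serum protein, was lower at 166, 126 and 176 CPM against 381, 254 and 394 CPM, and so was FGG, a fibrinogen chain (log2 difference -0.98). The list thus held members apart from the comparison in both directions.

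Wound and regeneration genes were called higher for 10 of 19 and lower for 3, with a median of 0.53. TNFRSF12A, the TWEAK receptor, stood at 114, 98.8 and 67.4 CPM against 44.1, 43.1 and 38.5 CPM, ANXA3 at 113, 113 and 92.4 CPM against 45.7, 51.8 and 47.0 CPM, and the EGF receptor ligand AREG at 305, 268 and 213 CPM against 144, 138 and 118 CPM. EMP1 and S100A6, which the same list holds, were called lower (-1.12 and -0.61), although the groups overlapped for EMP1 and its call ended among cells low in enterocyte genes (-0.35, edgeR adjusted p = 0.42). Immediate early and heat shock genes had 5 of 19 higher and 7 lower, with FOS, KLF6 and EGR1 at -0.71, -0.71 and -0.46 and HSPH1 at 0.72, and in cells of 5000 to 15000 UMIs 3 were higher and 3 lower.

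The 15 largest differences in each direction were taken among called genes with a mean of at least 20 CPM in the higher group, outside the rule and marker genes. Of these CST1, a secreted cystatin, stood first at 37.9, 49.1 and 10.0 CPM against 3.34, 3.03 and 3.84 CPM, a log2 difference of 3.11 (SE 0.27). CST1 was read in few members of each library, as counted further below. SOCS2, a cytokine signal suppressor, stood at 26.5, 17.4 and 22.9 CPM against 2.04, 2.37 and 2.66 CPM, a difference of 3.09. RGCC, a regulator of the cell cycle, stood at 46.2, 41.5 and 15.8 CPM against 5.42, 5.66 and 3.84 CPM. All 3 were apart, and CST1 and RGCC were lowest in the LPS library among member sums. TCF4, a helix-loop-helix factor distinct from the Wnt effector TCF7L2, differed by 2.08, and the acute phase paralogs ORM1 and ORM2, whose reads counting may split unevenly, by 2.04 and 2.23. On the low side, S100A9, a calprotectin subunit, stood at 2.08, 1.02 and 5.73 CPM against 36.4, 24.5 and 22.1 CPM (log2 difference -3.56), S100G, a calcium-binding protein of enterocytes, differed by -3.36, and PCK1, of gluconeogenesis, stood at 19.7, 16.4 and 12.9 CPM against 121, 109 and 110 CPM.

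**Figure D4:**
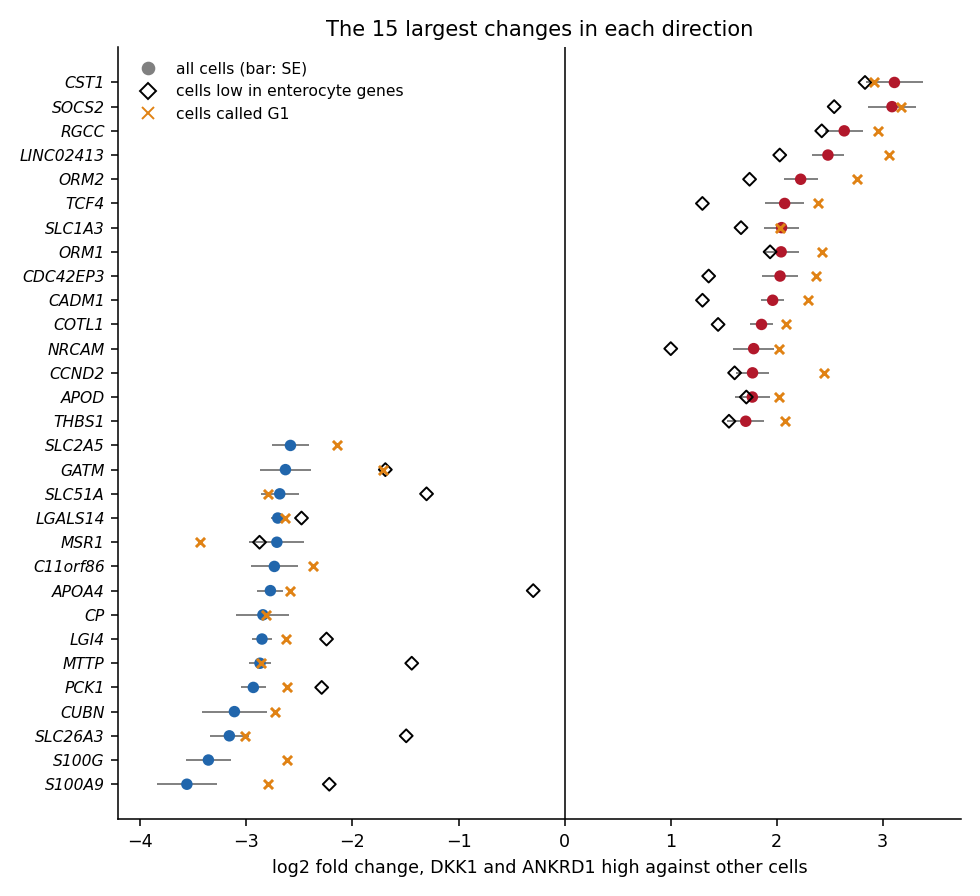
Log2 difference ± SE between members and the other Caco-2-line cells for the 15 genes with the largest difference in each direction among those called with a mean of at least 20 CPM in the higher group, rule and marker genes left out, with diamonds for members and other cells low in enterocyte genes and crosses for cells called G1. The differences reach from 3.11 for CST1 to -3.56 for S100A9.

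Markers of other cell types were read in the same sums. Goblet cell genes summed to 1949, 2221 and 1800 CPM against 2338, 2278 and 2042 CPM, with 1 of 10 called higher and 6 lower. AGR2, their most abundant gene in members, averaged 1456 CPM against 1041 CPM, and TFF3 was lower at 517, 467 and 305 CPM against 1270, 1010 and 848 CPM. Enteroendocrine genes summed to 86.7, 99.3 and 72.4 CPM against 131, 113 and 142 CPM, with 1 of 8 called higher and 6 lower. PCSK1N, the most abundant and the 1 called higher, averaged 43.4 CPM against 31.2 CPM, and DESeq2 did not call it (adjusted p = 0.20). CHGA, NEUROD1, NEUROG3 and GCG were at 0 UMIs in members. Both lists were thus lower in sum in the members of every library.

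Mesenchymal and blood cell genes summed to 499, 420 and 483 CPM against 162, 177 and 220 CPM, nearly all of it FN1 at a mean of 420 CPM against 136 CPM. Of this list COL1A2, DCN, CDH2, PTPRC and HBB were at 0 UMIs in members, and VIM averaged 3.63 CPM against 2.36 CPM. Placental-type genes summed to 83.1, 87.0 and 90.3 CPM against 51.8, 96.5 and 49.6 CPM, with PAGE4 most abundant and XAGE2 and CGA at 0. HT29 genes that the rule did not use summed to 45.7, 48.6 and 32.2 CPM against 37.1, 51.3 and 38.5 CPM, with overlapping groups, 0 of 8 called in either direction, SNCG most abundant and NPSR1 and C6orf15 at 0. PDGFRA, a receptor of fibroblasts, was higher at 6.23, 7.16 and 8.60 CPM against 0.653, 2.07 and 2.07 CPM, and CD68, a lysosomal protein abundant in macrophages, was lower at 9.34, 11.3 and 10.7 CPM against 24.0, 22.3 and 22.5 CPM. The CD68 log2 difference of -1.30 fell to -0.61 among cells low in enterocyte genes, where it was not called (edgeR adjusted p = 0.25). Several defining stromal and blood markers were thus at 0 while FN1, PDGFRA and CD68 were read in members, and the part of the remaining genes in the differences above was not tested.

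The members were not uniform. The 75, 67 and 73 members with DKK1 and no ANKRD1 UMI were compared with the 51, 77 and 54 with ANKRD1 and no DKK1 UMI over 5613 genes, of which 2.51% were called higher in the DKK1-alone cells (141) and 1.89% lower (106), 4.4% in all. These cells shared their libraries with the comparison above, and the 2 gating genes are left out. Median depths were 7204, 6253 and 5648 UMIs against 8032, 6372 and 5289.5 UMIs.

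The DKK1-alone cells were high in PLA2G2A, APOH and CST1 among others. PLA2G2A stood at 186, 142 and 594 CPM against 20.9, 31.2 and 26.2 CPM in the ANKRD1-alone cells, a log2 difference of 3.25 (SE 0.25, edgeR adjusted p = 1.0e-12). APOH, a plasma glycoprotein of the liver, stood at 388, 290.5 and 243 CPM against 60.4, 55.1 and 49.5 CPM, a difference of 2.44. CST1 stood at 97.4, 155 and 23.1 CPM against 2.32, 12.9 and 2.91 CPM, a difference of 3.85. Those 3 genes were apart in all libraries, as was LAMA1 at 57.2, 43.0 and 65.0 CPM against 0, 11 and 11.6 CPM. GSTA1, a glutathione transferase whose paralog GSTA2 may share its reads, differed by 3.41 and ADH6, an alcohol dehydrogenase, by 3.06. Among Wnt-linked genes, SP5 differed by 1.74 and DKK3 by 1.81. Of 11 intestinal stem cell and fetal genes tested, 7 were called higher in the DKK1-alone cells and 1 lower, with a median of 1.03.

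The ANKRD1-alone cells were high in CYP1A1 and C4BPB among others. CYP1A1, the xenobiotic cytochrome of the aryl hydrocarbon receptor, stood at 41.8, 27.6 and 29.1 CPM against 3.09, 8.61 and 8.39 CPM in the DKK1-alone cells (log2 difference -2.38). C4BPB, a complement regulator, stood at 95.2, 110 and 113.5 CPM against 21.7, 45.2 and 39.9 CPM. Both were apart. GAL stood at 121, 180 and 105 CPM against 58.8, 99.0 and 67.1 CPM. The YAP targets CTGF and CYR61 had differences of -0.63 and -0.30 and did not pass the test, and of 12 YAP and TEAD targets tested, 1 was called lower in the DKK1-alone cells and 0 higher, with a median of -0.37.

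The phases of these 2 sets differed in each library. S phase calls made up 13.3%, 10.4% and 17.8% of the DKK1-alone cells against 39.2%, 24.7% and 40.7% of the ANKRD1-alone cells, and G2/M calls 46.7%, 56.7% and 57.5% against 27.5%, 51.9% and 27.8%. With about 50 to 80 cells a sum, the number of calls depended on single libraries, and it was 26 higher and 8 lower without control 2.

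**Figure D5:**
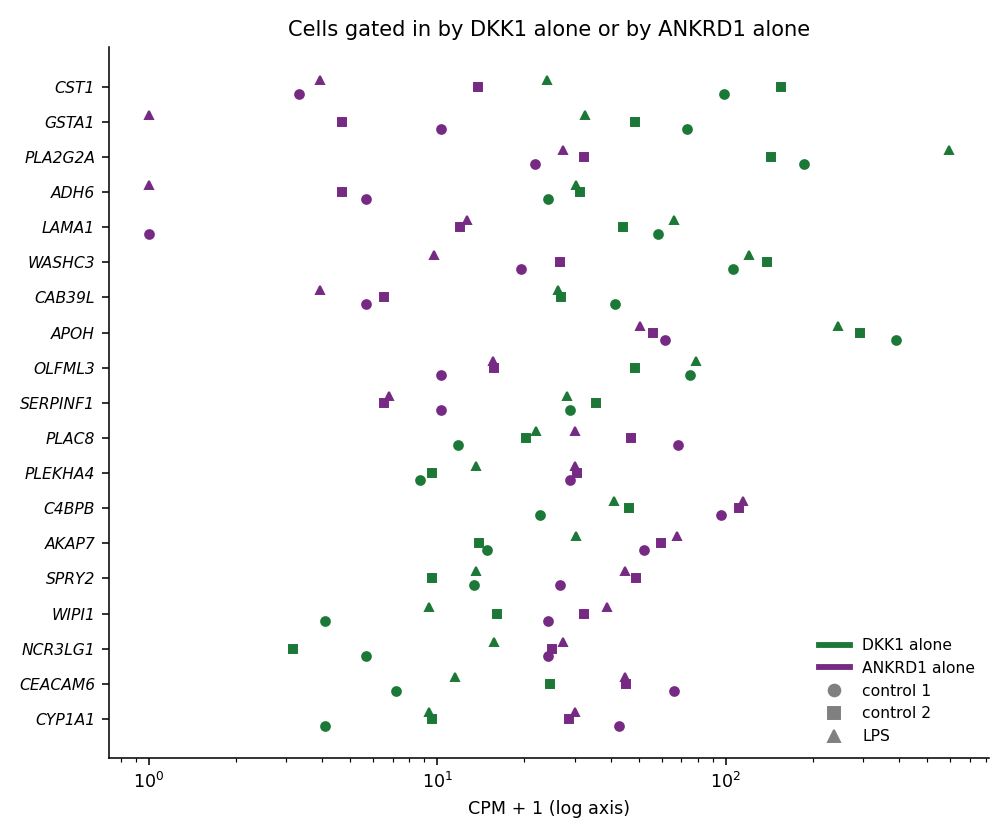
CPM plus 1 (log axis) by library for 19 genes in members with DKK1 and no ANKRD1 UMI and in members with ANKRD1 and no DKK1 UMI. PLA2G2A lies at 186, 142 and 594 CPM against 20.9, 31.2 and 26.2 CPM, and CYP1A1 at 3.09, 8.61 and 8.39 CPM against 41.8, 27.6 and 29.1 CPM.

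The LPS library was compared with the 2 controls within the members, with the spread between controls assumed for the lone LPS culture. This fit, also used for the other cells, had no library term, so both sums of a library were treated as separate samples. Of 14639 genes tested with edgeR, 1 was called higher (0.00683%) and 1 lower (0.00683%), 0.0137% in all, and 319 and 505 had an unadjusted p under 0.05. PLA2G2A, the 1 higher, stood at 87.7, 70.1 and 260 CPM, a log2 difference of 1.65 with an adjusted p of 0.036. Its 169, 137 and 363 UMIs came from 45, 45 and 43 members, and the 3 highest LPS cells held 36.6% of those in that library. ALB, the liver protein albumin, was the 1 lower, at 411, 351 and 145 CPM (log2 difference -1.46, adjusted p = 0.036), with 791, 686 and 203 UMIs in 41, 55 and 29 members. In each case the LPS value lay outside both controls, and with at least 5 gating UMIs neither call was made.

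TLR4, the LPS receptor, had 0 UMIs in the members of every library. Among 16 LPS receptor and NF-κB genes, members of all libraries together had 4 called higher than the other cells, CXCL1, RELB, NFKB1 and NFKB2 (log2 differences 1.75, 0.72, 0.61 and 0.57), and CXCL2 lower (-0.81), with a median of 0.15. The groups of CXCL2 overlapped, and its call ended among cells low in enterocyte genes (-0.17, edgeR adjusted p = 0.73). The number called higher was 1 of 16 in DESeq2, 1 of 14 in cells of 5000 to 15000 UMIs and 0 of 15 in cells called G1. In the other Caco-2-line cells, edgeR called 0 genes higher and 0 lower with LPS, where 195 and 474 had an unadjusted p under 0.05. The difference between the LPS effect in members and in the others was called for 9 genes upward (0.0615%) and 5 downward (0.0342%), 0.0956% in all, with 309 and 332 at an unadjusted p under 0.05, but for 0 genes in edgeR without the library block and for 1 upward and 1 downward in DESeq2.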

How the data were processed

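Single-cell RNA was measured in 3 libraries. Each library was deposited as a matrix of UMI counts per gene and barcode, made by the authors with Cell Ranger on GRCh38 and not normalized. The file headers give version 3.1.0, and 33538 features are listed. Barcode and feature lists were used as names.

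Cells were chosen as stated at the start of the report. The members, gene lists and named genes were chosen with earlier results of these data known, and the gate was proposed from clusters of these same cells, so the calls are not independent evidence that the group exists. Scrublet (scanpy 1.11.5) marked 2, 0 and 1 cells with its automatic threshold, which had therefore not worked, and removing the cells with the top 6% of scores was an alternative. The libraries shared 9, 9 and 11 barcodes pairwise, with 0 identical columns.

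Counts were summed per library and group. The member sums held 1926399, 1954272 and 1395554 UMIs, the others 26034214, 19800752 and 16907820. The quasi-likelihood test of edgeR 4.0.16 (R 4.3.3) was used with TMM scaling, its low count filter and a Benjamini-Hochberg adjusted p of 0.05. The library was a block for members against others, the split and the interaction, since both sums of a library come from the same culture. The comparison of LPS with control had no library term, since treatment does not vary within a library. DESeq2 1.42.0 was an alternative, and no pseudocount was added to the counts, while edgeR's fold changes carry its own prior count. Other alternatives were a gate of 5 UMIs, a gate on cells thinned to 3000 UMIs, cells of 5000 to 15000 UMIs, cells called G1, an HT29 limit of 0.05%, comparison cells with 0 gating UMIs, other cell minimums, no low count filter, no block and leaving out each library. Tested on simulated data for members against others (13280 genes), the test recovered 87.5% of 200 changed genes, and 6.42% of its calls were false. At 1.5-fold it recovered 62%, and at 2-fold 92%. The changed genes were drawn only from genes above a minimum of member UMIs, so the recovery does not cover genes of low count. They were also a far smaller share of the genes than the 30.2% called in the data, and the rate of false calls holds for that setting.

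The genes named were the marker genes, the 15 largest differences called in each direction, the genes most like the gating pair, the largest called differences of each list, the 10 largest of the split in each direction and those called with LPS, except 1 gene that is not reported here. Further list members under 20 CPM that the text names were chosen after their values were seen. Promoters came from RefSeq (GRCh38.p14).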

Additional observations from a re-analysis of the deposited data

Results flagged for a closer look

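The LPS effect in members differed from that in the other Caco-2-line cells for 14 genes by edgeR's interaction test, which rests on 1 LPS library. Without the library block edgeR called 0 genes (149 upward and 201 downward at an unadjusted p under 0.05), and DESeq2 called 1 upward and 1 downward, so the 14 depend on the fit. The values below are the log2 LPS effect in members minus that in the others.

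Of these genes, 5 rested on few cells. REG3A (8.11), an antimicrobial lectin, had 2, 0 and 80 UMIs in members, those of the LPS library in 6 cells with 40 in 1 of them. CCL20 (1.84), a chemokine, had 24, 22 and 30 UMIs, with 23 of the LPS UMIs in 1 cell. FABP7 (6.93) had 1, 0 and 7 UMIs, LCN15 (-9.85) 4, 16 and 0, and AL450992.1 (2.60) 4, 6 and 25, the last in 5 LPS cells. Where a library is at 0 the fitted difference depends on the prior count and is no bound.

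The other 9 were read in 9 or more cells of each library. PLA2G2A differed by 1.96 and ALB by -1.68. CST1 (-2.36) had 73, 96 and 14 UMIs in 16, 20 and 10 cells, and LGALS4 (-1.45), a galectin of enterocytes, 70, 123 and 21 UMIs in 14, 30 and 9 cells. IFITM3 (2.93), an interferon-induced membrane protein, had 20, 36 and 51 UMIs, and SLPI (1.72), a secreted protease inhibitor, 34, 85 and 72. NDRG1 (-1.05), a stress response gene, had 176, 207 and 81 UMIs in 57, 64 and 45 cells. ALDH1A1 (0.78), a retinal dehydrogenase, had 229, 287 and 262 UMIs in 99, 124 and 105 cells. OPN3 (1.77), an opsin, had 14, 16 and 39 UMIs in 13, 15 and 31 cells, with at most 3 in any LPS cell.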

How the results depend on the processing

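Against 2021 genes higher and 2038 lower in members, DESeq2 called 1123 and 1037, a gate on thinned cells 1130 and 1296, cells of 5000 to 15000 UMIs 1159 and 1279, cells called G1 725 and 958, and cells low in enterocyte genes in both groups (338 members and 2930 others, chosen after seeing the data) 904 and 871. Without the replicate block, edgeR called 1301 higher, with 1375 lower, and 2676 of the calls were shared. Leaving out each library gave 1394 to 1608 higher and 1540 to 1683 lower. Member shares were 3.1%, 3.44% and 2.65% with 5 gating UMIs and 2.76%, 3.82% and 3.55% with thinned cells. The 1 gene higher and 1 lower with LPS became 9 and 14 without the low count filter, and 0 and 0 with 5 gating UMIs, where 320 and 494 had an unadjusted p under 0.05 in edgeR. The 9 and 5 interaction calls became 0 and 0 without the replicate block (149 and 201 at an unadjusted p under 0.05), and 1 and 1 in DESeq2. The 141 and 106 calls of the split became 26 and 13 in DESeq2, 26 to 127 and 8 to 90 when each library was left out (26 and 8 without control 2, 55 and 31 without control 1). The comparison of LPS within members without a control was not run, since it leaves no residual degrees of freedom. The cause of these changes was not tested, apart from the fewer cells and samples that the settings leave.

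Of 126 genes named from the lists and largest differences, calls were lost for 21 in cells called G1, 11 in cells of 5000 to 15000 UMIs, 13 in DESeq2, 16 without the block and 28 of 121 among cells low in enterocyte genes. Of these the sign turned for FSTL3 (0.017) in cells called G1, and for CFL1 (0.11), ID2 (0.045), TUBB4B (0.013), IER3 (-0.13), PCSK1N (-0.26) and PAGE4 (-0.73) among cells low in enterocyte genes. Phase genes among the 126 help choose the cells called G1, so their calls there are no check.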
